A study of Mus musculus with 6 samples.

Results

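The genes described here are 9 genes of the extracellular signal-regulated kinase (ERK) and c-Jun N-terminal kinase (JNK) pathways and of the brakes placed on them. *Mapk3* encodes ERK1, *Mapk8* and *Mapk9* encode JNK1 and JNK2, *Dusp2*, *Dusp4*, *Dusp5* and *Dusp6* encode dual-specificity phosphatases, and *Spry1* and *Spred1* encode inhibitors of the Ras to ERK route. They were taken by gene symbol, and all 9 were found among the 35602 genes of a count table and among the 34714 genes of a pair of single-library tables.

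RNA was sequenced from mouse CD4+ T cells of the spleen that were stimulated through CD3 and CD28 and given either MAPK13-IN-1, a small-molecule inhibitor of the kinase encoded by *Mapk13*, or the solvent DMSO, with 3 libraries per group. The series design states that the inhibitor or DMSO was present for the 72 h of stimulation, while the sample protocol of replicates 2 and 3 states that 17.1 µM inhibitor, or DMSO, was added after day 1. Replicates 2 and 3 of each group, labelled WT, were prepared with poly-T beads and deposited as counts, which total 26874805 and 28487403 under DMSO and 33854760 and 32617702 under MAPK13-IN-1. Replicate 1 of each group was prepared with a stranded mRNA kit and deposited as decimal values. They name no unit and, from their range and sums, are taken to be FPKM, in which reads are divided by gene length and sequencing depth. The age of the mice and the dose and genotype of the replicate 1 cells are not given in the labels. A figure legend of the study gives 17.1 µM for its RNA-seq cells and does not name replicates. Nothing says that the replicates came from separate animals, so p-values measure only the spread between these libraries.

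A T cell that is triggered through its antigen receptor and CD28 activates Ras, which passes the signal through the Raf kinases and the MEK kinases to ERK, and in parallel activates JNK through its own kinase cascade. ERK activity switches on the genes of several of its own inhibitors. The dual-specificity phosphatases remove phosphate from the activation loop of the kinases, and Sprouty and Spred proteins act further up, between the receptor and Raf. In T cells these loops are known for setting the strength and duration of the response to antigen. The inhibited kinase, p38δ, belongs to the p38 branch of the same kinase family.

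The labelled cell type was checked against marker genes, since in bulk RNA fewer cells of a type and less RNA per cell cannot be told apart. Counts are given as CPM, counts relative to the library total per 1000000, and the marker sums are on library totals alone. The 7 CD4 T cell markers were all detected, with summed levels of 1596 and 1618 CPM in the DMSO libraries and 946.8 and 1065 CPM in the MAPK13-IN-1 libraries, and 6 of the 7 fell. The most abundant was *Cd5* under DMSO (log2 fold change -1.29) and *Cd4* under MAPK13-IN-1, and *Cd4* itself was at 275 and 276 CPM in the DMSO libraries and at 267 and 283 CPM in the MAPK13-IN-1 libraries after TMM scaling. In the pair the same markers summed to 1024 FPKM under DMSO and 933.8 FPKM under MAPK13-IN-1.

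All 8 B cell markers were also present in the counted libraries, although the cells were labelled as CD4+ T cells and, per the study's methods, had been purified from spleen with a CD4 T cell isolation kit. They summed to 1054 and 1028 CPM in the DMSO libraries and 1344 and 1353 CPM in the MAPK13-IN-1 libraries, with 6 of 8 higher and 1 lower. Fewer were called higher when either DMSO library was left out, and more were called lower without MAPK13-IN-1 replicate 3. The call of *Cd79b* (log2 fold change 0.17) was lost without DMSO replicate 2 (0.13) and without DMSO replicate 3 (0.18). The most abundant under MAPK13-IN-1 was *Pax5*, at 275.6 and 281.4 CPM on library totals. In the pair the B cell markers summed to 46.7 FPKM under DMSO and 34.6 FPKM under MAPK13-IN-1, led by *Cd79b*. The part of B cell RNA in the changes of the 9 genes was not tested.

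In the counted libraries the changes in these genes were modest. *Mapk8* rose 1.71-fold with MAPK13-IN-1, *Dusp5* fell 1.62-fold and *Dusp2* fell 1.32-fold, while *Mapk9* and *Dusp6* fell by less, and *Mapk3*, *Dusp4*, *Spry1* and *Spred1* did not pass the test. Thus 5 of the 9 genes had an adjusted p-value under 0.05 in the quasi-likelihood test of edgeR after Benjamini-Hochberg adjustment, 1 higher and 4 lower. Over the 16269 genes tested, 63.8% passed the same test, 31.5% higher and 32.3% lower, so the count for the 9 genes was not far from that of the whole transcriptome. None of the 9 reached an absolute log2 fold change of 1 in that fit (0 of 9), whereas 23.4% of all genes tested were called with a change of over 1. The median absolute log2 fold change was 0.22 for the 9 genes and 0.52 for all genes tested. Counted groups that did not overlap were common, at 83.5% of the 15825 tested genes that both library sets hold. Such a gap, given below for several of the 9 genes, thus does not set a gene apart. The calls of *Mapk9* and *Dusp6* depended on the scaling between libraries: with upper-quartile scaling or with library totals alone 3 of the 9 genes were called, *Mapk8*, *Dusp2* and *Dusp5*. Library totals alone moved the median of all genes up by 0.125 on the log2 scale. Leaving out DMSO replicate 3 also left 3 genes called.

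**Figure D1:**
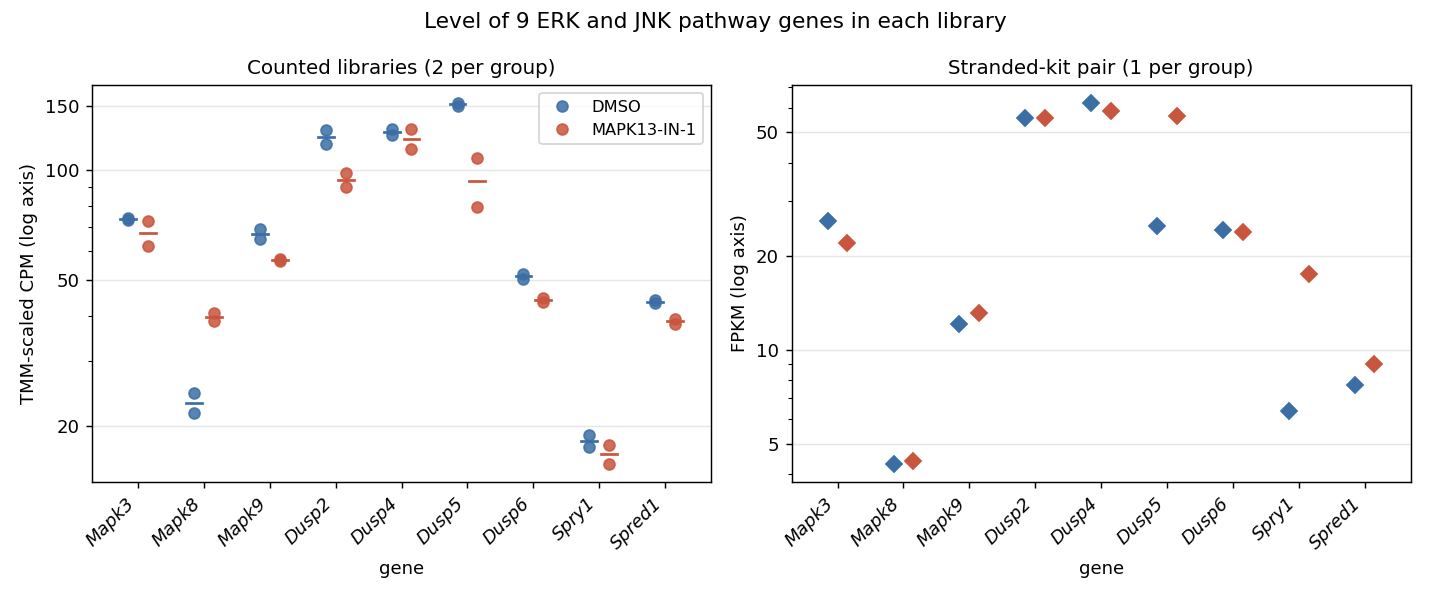
Level of each of the 9 genes in each library, as TMM-scaled CPM in the 4 counted libraries (circles, with a bar at the group mean) and as FPKM in the stranded-kit pair (diamonds), both on log axes, with DMSO in blue and MAPK13-IN-1 in red. *Mapk8* was higher in both counted MAPK13-IN-1 libraries than in both DMSO libraries and nearly equal in the libraries of the pair, while *Dusp5* was lower in the counted MAPK13-IN-1 libraries and higher in the MAPK13-IN-1 library of the pair.

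Among the kinases, *Mapk8* stood out. JNK1, its product, phosphorylates c-Jun and other transcription factors, and the gene lies on the reverse strand at chr14:33377898-33447158 (GRCm38). Its level was 21.7 and 24.5 CPM, scaled by the trimmed mean of M-values (TMM), in DMSO replicates 2 and 3 and 40.6 and 38.6 CPM in MAPK13-IN-1 replicates 2 and 3. Both inhibitor libraries lay above both DMSO libraries, and the gap between the groups was wider than the spread within either. The log2 fold change was 0.78 with a standard error (SE) of 0.092, and the adjusted p-value of edgeR's quasi-likelihood test was 3.68e-05. These levels rest on raw counts of 560 to 1441 per library, at which counting error alone is at most 4.23%.

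*Mapk9*, which encodes the closely related JNK2, went the other way. Its level was 65.0 and 69.2 CPM in the DMSO libraries and 57.1 and 56.6 CPM in the MAPK13-IN-1 libraries. The groups did not overlap, and the log2 fold change was -0.24 (SE 0.069, adjusted p = 0.011, edgeR). The call of *Mapk9* was lost when DMSO replicate 3 was left out (log2 fold change -0.20), with upper-quartile scaling (-0.16) and with library totals alone (-0.11). Because these kinases moved in opposite directions in the TMM-scaled fit, the ratio of *Mapk8* to *Mapk9* CPM, which does not depend on scaling between libraries, was 0.334 and 0.354 in the DMSO libraries and 0.711 and 0.683 in the MAPK13-IN-1 libraries. The ratio of the JNK genes was thus higher in each counted inhibitor library than in each counted DMSO library. It was not higher with the inhibitor in the pair. There *Mapk8* was at 4.30 FPKM under DMSO and 4.41 FPKM under MAPK13-IN-1, and *Mapk9* at 12.1 and 13.1 FPKM. The third JNK gene, *Mapk10*, did not pass the filter on low counts.

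*Mapk3*, which encodes ERK1, lies at chr7:126759601-126765819 on the forward strand. It was at 74.1 and 73.2 CPM in the DMSO libraries and at 62.0 and 72.5 CPM in the MAPK13-IN-1 libraries. MAPK13-IN-1 replicate 2 was low, and replicate 3 lay next to the DMSO libraries. The log2 fold change of -0.13 (SE 0.081) did not pass the test (adjusted p = 0.180, edgeR). It was -0.255 without MAPK13-IN-1 replicate 3 and -0.022 without MAPK13-IN-1 replicate 2.

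The phosphatases divide into nuclear enzymes made early after stimulation, encoded by *Dusp2*, *Dusp4* and *Dusp5*, and the cytoplasmic enzyme encoded by *Dusp6*; the products of *Dusp5* and *Dusp6* are known for their preference for ERK. *Dusp5* was at 152.8 and 150.1 CPM in the DMSO libraries and at 79.3 and 108.0 CPM in the MAPK13-IN-1 libraries. Both inhibitor libraries were below both DMSO libraries, and they differed more from each other than the DMSO libraries did. The log2 fold change was -0.69 (SE 0.114, adjusted p = 3.53e-04, edgeR), -0.94 without MAPK13-IN-1 replicate 3 and -0.49 without MAPK13-IN-1 replicate 2. *Dusp5* lies at chr19:53529109-53542431 on the forward strand, and 547 bases of its exons are also annotated, on the other strand, as exons of the antisense gene *AC137853.2* in GENCODE. That gene is not in the count table and the sources used here do not say whether counting used the strand, so its reads cannot be told apart from those of *Dusp5*.

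*Dusp2*, also known as PAC-1 and first found in activated T cells, lies at chr2:127336159-127338376 on the forward strand. It was at 118.1 and 129.3 CPM in the DMSO libraries and at 90.05 and 98.1 CPM in the MAPK13-IN-1 libraries. The groups were apart by more than the spread within each, with a log2 fold change of -0.40 (SE 0.071, adjusted p = 6.43e-04, edgeR). The call of *Dusp2* was kept under each of the 11 alternatives run, at log2 fold changes from -0.47 to -0.27.

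*Dusp6*, the cytoplasmic ERK phosphatase, changed less. It was at 50.5 and 52.0 CPM in the DMSO libraries and at 44.7 and 43.5 CPM in the MAPK13-IN-1 libraries. The groups did not overlap, and the log2 fold change of -0.22 (SE 0.073) passed the test by a small margin (adjusted p = 0.0228, edgeR). The call was lost without DMSO replicate 2 (-0.25) and without DMSO replicate 3 (-0.21), and under 4 further alternatives. *Dusp4*, whose nuclear product acts on ERK and JNK, was at 125.1 and 129.5 CPM in the DMSO libraries and at 129.4 and 114.6 CPM in the MAPK13-IN-1 libraries, so the groups overlapped. Its log2 fold change was -0.061 (SE 0.070, adjusted p = 0.462, edgeR) and turned positive with upper-quartile scaling (0.020) and library totals alone (0.065). Leaving out MAPK13-IN-1 replicate 2 gave -0.15, and leaving out MAPK13-IN-1 replicate 3 gave 0.017. Within each library, *Dusp5* gave 3.02 and 2.89 times the CPM of *Dusp6* under DMSO and 1.78 and 2.48 times under MAPK13-IN-1, whereas *Dusp4* gave 2.48 and 2.49 times under DMSO and 2.90 and 2.63 times under MAPK13-IN-1.

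The upstream inhibitors did not pass the test. *Spry1*, a Sprouty gene, was at 18.9 and 17.5 CPM in the DMSO libraries and at 15.7 and 17.7 CPM in the MAPK13-IN-1 libraries, with overlapping groups and a log2 fold change of -0.12 (adjusted p = 0.358, edgeR) that was 0.0052 with library totals alone, -0.034 without MAPK13-IN-1 replicate 2 and -0.22 without MAPK13-IN-1 replicate 3. *Spry1* shares 710 exon bases with *Gm42922*, annotated on the other strand and not in the count table. *Spred1*, whose product brings the Ras inhibitor neurofibromin to the membrane, was at 43.4 and 44.1 CPM in the DMSO libraries and at 39.3 and 37.9 CPM in the MAPK13-IN-1 libraries. Its groups did not overlap, but the log2 fold change of -0.18 (SE 0.076) missed the threshold (adjusted p = 0.0588, edgeR). *Spred1* also missed it under each alternative that kept all 4 counted libraries, and its log2 fold change was -0.21 without MAPK13-IN-1 replicate 2. Their relatives were named after their values were seen: *Spred2* had a log2 fold change of 0.79, *Spred3* of 0.49 and *Spry2* of 1.44, all called higher, while *Spry4* at 0.29 was not called (adjusted p = 0.346, edgeR) and was at 0.059 without MAPK13-IN-1 replicate 2 and 0.49 without MAPK13-IN-1 replicate 3.

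Per length of annotated exons the genes covered a wide range of levels. In the DMSO libraries *Dusp2* was at 61.8 ± 3.95 CPM per kilobase (SD, n = 2) and *Dusp5* at 61.2 ± 0.782, which did not differ beyond their spread. *Dusp4* followed at 46.5 ± 1.15, *Mapk3* at 32.6 ± 0.281, *Dusp6* at 16.4 ± 0.330 and *Mapk9* at 9.89 ± 0.434 CPM per kilobase. *Spred1* at 6.45 ± 0.0684 and *Spry1* at 6.25 ± 0.345 were level within their spread, and *Mapk8* came last at 2.02 ± 0.171. With MAPK13-IN-1 the order began with *Dusp2* at 47.0 ± 2.84, *Dusp4* at 44.5 ± 3.82 and *Dusp5* at 37.9 ± 8.21 CPM per kilobase, neighbours within their spread, and *Mapk8* remained last at 3.46 ± 0.122. In the FPKM of the pair *Dusp4* and *Dusp2* led under DMSO and *Mapk8* was again last in both libraries.

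Genes with the closest profile over the 4 counted libraries were looked up for the genes with the largest fitted rise and fall of the 9. For *Mapk8* these were *Zc3h3*, *Sfmbt2* and *Zfp518a*, at Euclidean distances of 0.03, 0.0345 and 0.0442 in centred log2 CPM among 9125 genes with a mean of at least 10 CPM. For *Dusp5* they were *Man2a2*, *Agbl5* and *Ncapd2*, at 0.0277, 0.0347 and 0.0374. *Man2a2*, for example, was at 70.8 and 71.4 CPM in the DMSO libraries and at 37.3 and 50.7 CPM in the MAPK13-IN-1 libraries, and like *Dusp5* it was lower in MAPK13-IN-1 replicate 2 than in replicate 3.

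The other pathway genes moved in both directions, as the transcriptome did. Of 82 tested genes in 8 lists 31 rose and 30 fell, or 74.4% called, beside 63.8% of all genes tested, 31.5% higher and 32.3% lower. Of the 18 genes of the ERK cascade, from the exchange factors of Ras to the kinases downstream of ERK, 4 rose and 8 fell; 2 rose and 7 fell without DMSO replicate 2, and 1 rose and 8 fell without DMSO replicate 3. *Map2k1*, which encodes the ERK activator MEK1, rose by a log2 fold change of 0.32, and the adaptor gene *Grb2* rose by 0.24, a call lost without DMSO replicate 3 (0.19). *Map2k2*, which encodes MEK2, had a log2 fold change of -0.92 and the Raf kinase gene *Araf* one of -1.16. *Araf* was at 104 and 102 CPM in the DMSO libraries and at 41.4 and 50.8 CPM in the MAPK13-IN-1 libraries.

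Of 13 tested brakes on Ras other than the 9 genes, 7 rose and 5 fell, with *Spry3* not tested. The GTPase-activating protein genes *Rasa3* (log2 fold change 1.13) and *Nf1*, which encodes neurofibromin (1.26), rose. *Rasal3*, another GTPase-activating protein gene, had a log2 fold change of -0.83 and the adaptor gene *Dok2* one of -1.24. So the partner of Spred proteins, *Nf1*, rose from 38.4 and 39.1 CPM to 96.7 and 89.2 CPM in libraries where *Spred1* itself was not called.

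Of 15 tested genes of the JNK cascade 6 rose and 6 fell. With RLE, upper-quartile or library-total scaling, or at least 10 counts in every library, 6 rose and 4 fell. With DESeq2 5 rose and 4 fell, and with no filter on low counts 6 rose and 5 fell. The stress-induced regulator gene *Gadd45b* (log2 fold change 1.60) and the kinase gene *Map3k1* (0.71) rose, and *Map4k1*, which encodes the hematopoietic kinase HPK1 (-0.91), and *Map3k11* (-0.50) fell. Of the 6 other MAP kinase phosphatase genes 4 rose and 2 fell. *Dusp8*, which was scarce in the DMSO libraries, had a log2 fold change of 2.09 and *Dusp16*, whose product acts on JNK, one of 0.76. *Dusp1*, an early stress-induced phosphatase gene, had a log2 fold change of -0.48 and the scarce *Dusp9* one of -1.32. Of 9 atypical dual-specificity phosphatase genes 4 rose, among them *Dusp14* (1.67) and *Dusp11* (0.48), and *Dusp28* alone fell (-0.71).

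Genes known as outputs of the pathways also split. Of 9 tested ERK response genes other than the 9 described here, 4 rose and 3 fell. *Egr1*, an early transcription factor gene, fell from 341 and 332 CPM in the DMSO libraries to 49.8 and 47.1 CPM in the MAPK13-IN-1 libraries (log2 fold change -2.80). *Etv5* also fell (-0.73), whereas the survival gene *Ier3* (2.38) and the cyclin gene *Ccnd1* (3.81) rose. Of 8 genes for transcription factors that ERK or JNK phosphorylate 1 rose and 3 fell: *Jun* had a log2 fold change of 0.95, *Jund* of -1.51 and *Junb* of -0.81. Without MAPK13-IN-1 replicate 3, 2 of these 8 rose and 4 fell, with the replicate block 1 rose and 5 fell, and with upper-quartile scaling, library totals alone or at least 10 counts in every library 2 rose and 3 fell. Of the p38 genes *Mapk14* rose (0.43) and *Mapk11* (-1.30) and *Mapk13* (-1.47) fell. *Mapk13*, the gene of the inhibited kinase, was scarce, at 3.06 and 2.72 CPM in the DMSO libraries and 0.592 and 1.51 CPM in the MAPK13-IN-1 libraries, and its log2 fold change was -0.94 without MAPK13-IN-1 replicate 2 and -2.29 without MAPK13-IN-1 replicate 3.

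**Figure D2:**
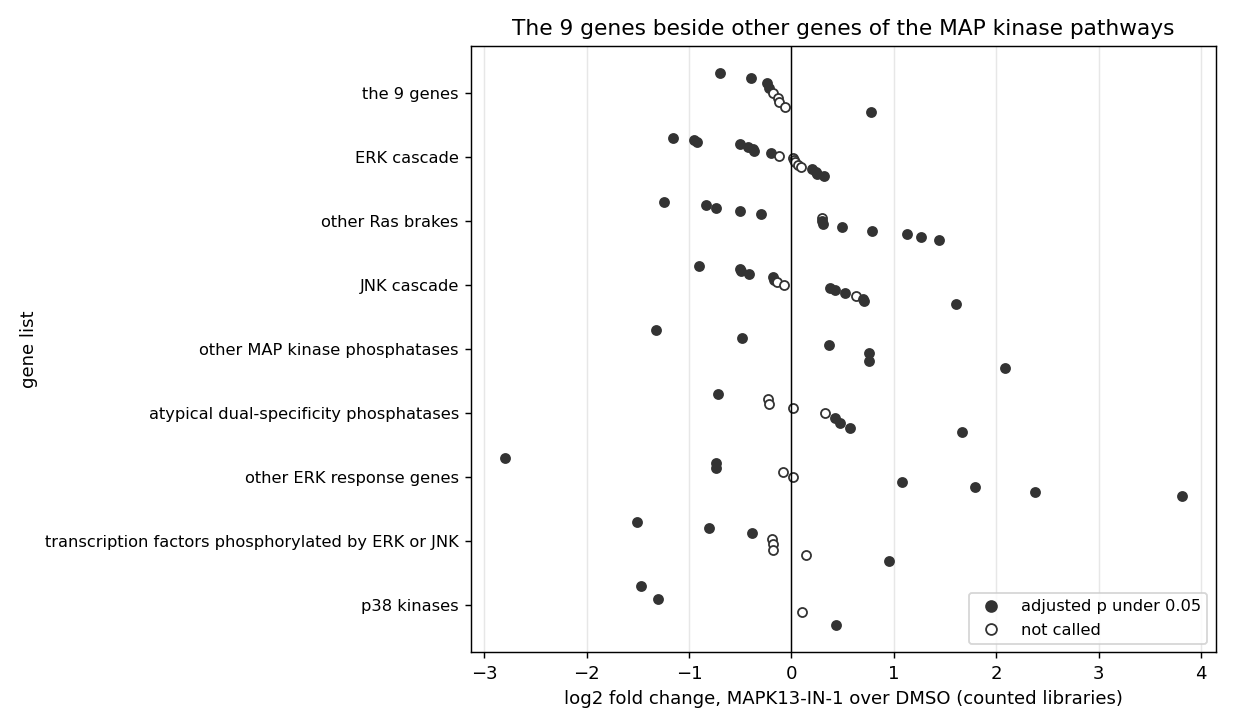
Log2 fold change of each tested gene in the counted libraries (x axis), with a row of points for the 9 genes and for each of 8 lists of other pathway genes; filled points passed the test and open points did not. The 9 genes lie between -0.69 and 0.78, while the response genes range from -2.80 (*Egr1*) to 3.81 (*Ccnd1*).

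The stranded-kit pair gave another picture. There *Dusp5* was at 25.0 FPKM under DMSO and 56.5 FPKM under MAPK13-IN-1, 2.26 times as high, where the counted libraries had it lower with the inhibitor. *Spry1* was at 6.36 FPKM under DMSO and 17.5 FPKM under MAPK13-IN-1, 2.76 times as high, where the counted groups overlapped. *Mapk8*, which rose in the counted libraries, was at 4.30 and 4.41 FPKM. On the scale of log2(FPKM + 1), which understates the change of scarce genes, the ratio was 1.14 for *Dusp5*, 1.33 for *Spry1* and 0.0285 for *Mapk8*.

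The other 6 genes differed little in the pair. *Dusp2* was at 55.7 FPKM under DMSO and 55.4 FPKM under MAPK13-IN-1, *Dusp4* at 62.2 and 58.7 FPKM, and *Dusp6* at 24.4 and 23.9 FPKM. *Mapk3* was at 26.0 and 22.0 FPKM, *Mapk9* at 12.1 and 13.1 FPKM and *Spred1* at 7.69 and 8.98 FPKM. Thus 2 of the 9 genes were at least 2-fold higher with the inhibitor on that scale and 0 at least 2-fold lower, beside 7.12% and 1.91% of the 11510 genes with at least 1 FPKM in either library. For *Mapk9*, *Dusp5* and *Spred1*, 3 of the 9 genes, the counted groups did not overlap and the pair lay in the opposite direction, which held for 30% of the 15825 tested genes that both sets hold. With 1 library per group there is no replicate check, and the depth of these libraries is unknown. The library kit differed between the pair and the counted libraries, and the part of the kit in these differences was not tested.

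**Figure D3:**
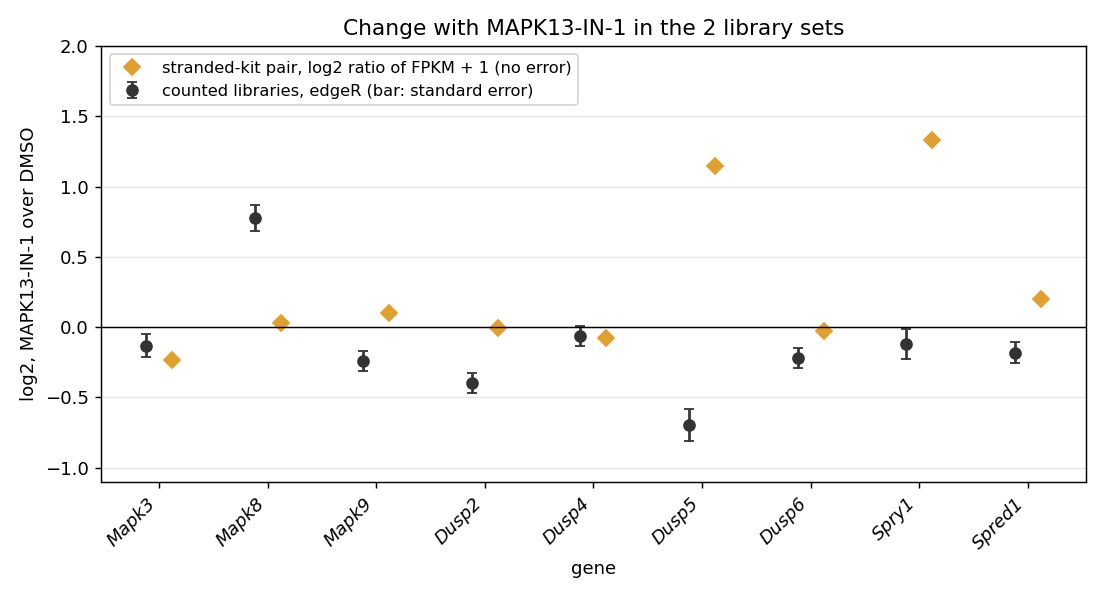
Change of each of the 9 genes with MAPK13-IN-1 on the log2 scale, as the fitted log2 fold change in the counted libraries (black circles, bar: standard error, 2 libraries per group) and as the log2 ratio of FPKM + 1 in the stranded-kit pair (orange diamonds, 1 library per group, no error). *Dusp5* lies at -0.69 in the counted libraries and at 1.14 in the pair, and *Mapk8* at 0.78 and 0.0285.

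Several other pathway genes were higher with the inhibitor in the pair as in the counted libraries. *Gadd45b* was at 30.4 FPKM under DMSO and 147.3 FPKM under MAPK13-IN-1, *Jun* at 8.52 and 44.3 FPKM, and *Dusp14* at 4.14 and 21.9 FPKM. *Ier3* was at 5.06 and 15.1 FPKM. *Egr1* was lower with the inhibitor in both sets, at 56.1 and 37.3 FPKM in the pair. *Dusp1* had the opposite direction in the pair, at 9.85 FPKM under DMSO and 22.8 FPKM under MAPK13-IN-1, and so did *Mapk13*, at 0.191 and 3.28 FPKM. On the scale of log2(FPKM + 1), 4 of the 9 other ERK response genes with at least 1 FPKM were at least 2-fold higher in the pair. On that scale 0 were at least 2-fold lower. Over the 11510 genes with at least 1 FPKM in either library, these shares were 7.12% higher and 1.91% lower.

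Markers of other cells moved as well. The 6 macrophage markers, led by *Cd68*, summed to 13.1 and 11.4 CPM under DMSO and 43.8 and 36.3 CPM under MAPK13-IN-1, with 5 of 6 higher, and to 2.93 and 9.10 FPKM in the pair. The 5 erythroid markers, led by *Hbb-bs* in the counted libraries and in the MAPK13-IN-1 library of the pair, summed to 3.80 and 3.30 CPM under DMSO and 56.9 and 41.1 CPM under MAPK13-IN-1, with 4 of 4 tested higher, and to 0.516 and 1.04 FPKM in the pair. *Slc4a1* was at 0 in DMSO replicate 2, and *Alas2* led the erythroid list in the DMSO library of the pair. The 6 CD8 T and NK cell markers summed to 32.1 and 32.5 CPM under DMSO and 9.81 and 13.3 CPM under MAPK13-IN-1, with 3 of 4 tested lower. They were led by *Nkg7* under DMSO and *Cd8b1* under MAPK13-IN-1, *Ncr1* was at 0 in 3 of the 4 counted libraries, and *Klrb1c* was at 0 in DMSO replicate 2 and in the DMSO library of the pair. In the pair they went the other way, from 16.8 FPKM under DMSO to 120.0 FPKM under MAPK13-IN-1, of which *Nkg7* made up 110.7 FPKM. The 4 neutrophil markers summed to under 1 CPM in every counted library and under 1 FPKM in the pair, and none passed the filter on low counts; *S100a9* was at 0 in all 4 counted libraries, and the highest level was that of *Ly6g* in MAPK13-IN-1 replicate 3, at 0.307 CPM. The part of these cell types in the results was not tested.

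Promoter sequences, 250 bases before to 50 bases after the transcription start, were at hand from RefSeq (GRCm38.p6) for 7 of the 9 genes in 8 windows, the other genes being *Mapk3* and *Dusp4*. They are shown for the gene with the largest fitted rise and the pair with the largest fitted falls, since ERK and JNK act on transcription through factors that bind short motifs near gene starts. The motifs searched on both strands were TGANTCA (AP-1), TGACGTCA (CRE), CCGGAA (Ets) and the CArG box, the site of the serum response factor. Capitals mark the matches. *Dusp5* held 2 CArG boxes side by side, starting at positions -82 and -72 from the start, and no other match was found in the 8 windows. Of 32851 promoters, 1.63% held a CArG box, 7.81% the AP-1 motif, 1.79% the CRE and 14.9% the Ets motif. The windows are chr19:53528895-53529194 on the forward strand for *Dusp5*, chr2:127335909-127336208 on the forward strand for *Dusp2* and chr14:33447109-33447408 on the reverse strand for *Mapk8*, whose other window is not shown.
Dusp5: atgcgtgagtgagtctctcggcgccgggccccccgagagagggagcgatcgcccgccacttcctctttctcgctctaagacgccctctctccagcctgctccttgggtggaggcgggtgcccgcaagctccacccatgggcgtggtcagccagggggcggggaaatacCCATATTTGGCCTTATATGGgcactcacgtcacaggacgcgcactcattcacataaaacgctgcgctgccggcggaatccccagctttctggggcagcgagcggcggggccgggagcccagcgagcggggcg
Dusp2: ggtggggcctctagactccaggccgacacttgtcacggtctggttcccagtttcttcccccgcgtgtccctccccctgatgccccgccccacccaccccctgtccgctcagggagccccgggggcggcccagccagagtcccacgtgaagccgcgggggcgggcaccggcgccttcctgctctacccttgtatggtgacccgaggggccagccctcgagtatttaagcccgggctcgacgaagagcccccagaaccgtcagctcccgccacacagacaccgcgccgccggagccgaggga
Mapk8: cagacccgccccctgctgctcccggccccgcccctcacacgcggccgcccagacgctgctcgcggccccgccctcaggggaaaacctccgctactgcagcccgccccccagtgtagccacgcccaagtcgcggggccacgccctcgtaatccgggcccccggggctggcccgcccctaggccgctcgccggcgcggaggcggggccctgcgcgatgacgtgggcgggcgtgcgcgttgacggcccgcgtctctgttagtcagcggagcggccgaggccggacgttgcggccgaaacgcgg
The windows shown for *Dusp5*, *Dusp2* and *Mapk8* held 66.7%, 70.7% and 77.7% G and C, and the median over all promoters was 52.7%. The window of *Mapk8* that is not shown held 34.3%. *Dusp5* and *Dusp2*, which both fell in the counted libraries, shared no match to these motifs.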

How the data were processed

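The 9 genes and the gene lists were chosen with earlier results of these data known. Per the submitters' processing notes, fastp 0.21.0, HISAT2 2.1.0, StringTie 2.1.5, DESeq2 1.30.1 and the build mm10 are listed for replicates 2 and 3, and FastQC, HISAT2 and GRCm38 (mm10) for replicate 1; which tool counted is not given in the sources used here. For replicates 2 and 3 the authors deposited raw counts per gene. For replicate 1 the authors deposited values read here as FPKM. Those were compared as log2 ratios after adding 1 (alternative: 0.1).

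The test on counts was that of edgeR 4.0.16 in R 4.3.3 (filterByExpr defaults, minimum count 10 and minimum total 15; TMM; quasi-likelihood test, 2 libraries against 2 with no covariate) and Benjamini-Hochberg adjustment over all 16269 genes tested, with a threshold of 0.05. The steps were tested on simulated data. Gene positions and exon lengths came from GENCODE vM21 (GRCm38), read in Python 3.11.15. Alternatives were RLE, upper-quartile and library-total scaling, no filter, at least 10 counts in every library, DESeq2 1.42.0, the replicate number as a block, and each counted library left out.

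Genes named were the 9 genes, *Mapk13* and *Mapk14*, per list at most 2 risen and 2 fallen genes of smallest p-value, 3 nearest genes for *Mapk8* and *Dusp5*, and the most abundant gene of each marker list; some genes that meet these rules are not reported here. Other genes were named for a count of 0, an exon overlap or missing the filter on low counts, or carry a mark that their values were known when they were picked.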

Additional observations from a re-analysis of the deposited data

Results flagged for a closer look

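For 23 of the 58 tested genes named here the counted MAPK13-IN-1 libraries lay wholly on one side of the counted DMSO libraries and the stranded-kit pair went the other way, beside 30% of 15825 genes tested. Of the 58, 29 had been named for small p-values in the counted libraries, which favours groups that do not overlap, and several values in the pair are near 0. The difference between the library sets was not tested, and the pair has 1 library per group. Unless stated, values here are log2 ratios of FPKM + 1 in the pair. Lower in the counted libraries but higher in the pair were *Dusp5* at 1.14, *Mapk9* at 0.10 and *Spred1* at 0.20 among the 9 genes, of which *Spred1* was not called in the counted libraries. The same held for the phosphatase genes *Dusp1* at 1.13 and *Dusp9* at 0.036, the latter scarce in both sets. Among the cascade and Ras brake genes it held for *Map2k2* at 0.13, *Araf* at 0.20, *Dok2* at 0.22, *Map4k1* at 0.43 and *Map3k11* at 0.53. It also held for *Jund* at 0.14, *Junb* at 0.47 and *Mapk13* at 1.84, and for the CD8 T and NK cell markers *Nkg7* at 3.00 and *Cd8b1* at 1.02. Higher in the counted libraries but lower in the pair were *Mapk14* at -0.31, *Map3k1* at -0.038, *Spred2* at -0.074, *Spry4* at -0.12 and *Sfmbt2* at -0.10, of which *Spry4* was not called in the counted libraries and was at a log2 fold change of only 0.059 there without MAPK13-IN-1 replicate 2. The markers *Pax5* at -0.66, *Cd79b* at -0.21 and *Alas2* at -0.14 were likewise higher in the counted libraries.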

How the results depend on the processing

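*Mapk8*, *Dusp2* and *Dusp5* kept their direction and call under all 11 alternatives. The calls for all genes numbered 8624 (DESeq2) to 10943 (without MAPK13-IN-1 replicate 3), beside 10374. With upper-quartile scaling 3 of the 9 genes were called, *Mapk9* was at -0.16, *Dusp6* at -0.14 and *Dusp4* at 0.020. With library totals alone 3 were called, *Mapk9* was at -0.11, *Dusp6* at -0.092, *Dusp4* at 0.065 and *Spry1* at 0.0052. *Dusp6* was also not called with at least 10 counts in every library (-0.17) or DESeq2 (-0.20). Leaving out each library in turn, with the lone library assumed to vary like the other group, gave 3 to 7 called genes, and log2 fold changes of -0.30 to -0.20 for *Mapk9*, -0.25 to -0.21 for *Dusp6*, -0.15 to 0.017 for *Dusp4*, -0.21 to -0.16 for *Spred1*, -0.255 to -0.022 for *Mapk3* and -0.22 to -0.034 for *Spry1*. The cause was not tested. The replicate numbers share only a number (correlation of deviations 0.005); with the replicate block 10645 genes and 5 of the 9 were called. Of 61 calls in the 8 pathway lists, 52 to 61 were kept under each alternative and 0 reversed. In the pair, a pseudocount of 0.1 moved *Spry1* from 1.33 to 1.45. Ratios of scarce genes moved more: *Mapk13* from 1.84 to 3.54, *Spry4* from -0.12 to -0.53, *Alas2* from -0.14 to -0.50 and *Dusp9* from 0.036 to 0.11. The size of such ratios thus depends on the pseudocount, while these genes kept their direction. Depth of the pair is unknown; for the 9 genes the lowest count was 475.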
